A study of Mus musculus with 120 samples.

Results

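The 10 genes described here serve the presentation of peptides by major histocompatibility complex (MHC) class I and form the inducible proteasome, or immunoproteasome. They are H2-K1, H2-D1, Tap1, Tap2, Tapbp, Psmb8, Psmb9, Psmb10, Psme1 and Nlrc5, taken by gene symbol from the 55487 genes shared by both count tables, and each had counts in every comparison. They were measured by bulk RNA sequencing in 120 biopsies of the scaffold immunological niche (IN), a porous polymer implant under the skin that fills with host cells and can be removed and replaced in the same animal. INs came from female NOD/ShiLtJ mice, an inbred strain prone to autoimmune diabetes, and from NOR/LtJ mice, a related strain that stays free of diabetes. Both strains carry the H2g7 haplotype of the MHC.

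The 23 NOR samples came from 5 mice at 6, 10, 14, 18 or 22 weeks of age. The 58 samples of NOD progressors, the mice that became hyperglycemic, came from 10 mice at 6 weeks of age, at 7, 5, 3 and 1 weeks before onset, and at onset. The 39 samples of NOD nonprogressors, which kept glucose control, came from 11 mice at 6 weeks of age, fewer of them at 10 to 22 weeks, and included 6 samples labelled by days after implantation that entered no comparison. Libraries were sequenced in 2 batches, and all NOR samples belonged to batch 1, so that the strains were compared there. The 7-week-before-onset samples were all sequenced in batch 2, also those of progressor mice 1 to 4, whose other samples were in batch 1. Total counts per library ranged from 4722396 to 56185434 in batch 1 and from 29029239 to 43880986 in batch 2. A pair of libraries at 18 weeks stood apart. That of NOR mouse 5 had most of its counts on 1 ribosomal RNA gene, that of nonprogressor mouse 3 had the lowest total, and calls that depend on either are given with their values without it.

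MHC class I molecules display short peptides from proteins made inside a cell to CD8 T cells. Proteins are cut by the proteasome, whose standard catalytic subunits are replaced by Psmb8, Psmb9 and Psmb10 in immune cells and in cells exposed to interferon-gamma. The peptides enter the endoplasmic reticulum through the transporter formed by Tap1 and Tap2, tapasin (Tapbp) holds empty class I molecules at that transporter, and the heavy chain reaches the surface with beta-2 microglobulin. Nlrc5 is the transactivator that acts at class I promoters. In autoimmune diabetes, beta cells are attacked by CD8 T cells that recognize peptides on class I molecules. The IN contains immune and stromal cells but no islets.

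Of the 10 genes, 7 lie on chromosome 17 of the mouse genome (GRCm38, GENCODE M21). Tapbp (chr17:33915899-33929292) lies beside H2-K1 (chr17:33996017-34000347, minus strand), and H2-D1 (chr17:35262730-35267499) lies farther along the MHC. Psmb9 (chr17:34181987-34187764, minus strand), Tap1 (chr17:34187553-34197225), Psmb8 (chr17:34197721-34201454) and Tap2 (chr17:34203527-34216321) follow each other without another member between them. The annotated Psmb9 and Tap1 overlap head to head on opposite strands, and the counting is not stated to use strand, so reads in that overlap cannot be told apart. Psme1 is on chromosome 14 (chr14:55578123-55581529), while Nlrc5 (chr8:94434356-94527272) and Psmb10 (chr8:105935735-105938444, minus strand) are on chromosome 8.

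RefSeq promoters (GRCm38.p6) were given for 8 of the 10 genes, Tap2 and Nlrc5 not being among them. Their sequences are those of the reference genome, whose MHC haplotype is not that of these mice. The interval between the starts of Tap1 and Psmb9 is shown because these 2 genes, a transporter chain and a proteasome subunit, are read in opposite directions from it. It covers chr17:34187331-34187555, is written on the plus strand with Tap1 to its right, and has a CCAAT box in capitals.
Tap1/Psmb9 interval: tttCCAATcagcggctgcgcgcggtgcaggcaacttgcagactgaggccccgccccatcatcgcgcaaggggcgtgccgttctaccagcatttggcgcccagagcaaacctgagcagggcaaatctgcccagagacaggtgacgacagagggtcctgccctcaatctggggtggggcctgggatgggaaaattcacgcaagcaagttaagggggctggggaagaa
The promoters of the heavy chains are shown because they share sequence, as their genes do, and H2-K1 and H2-D1 differed in their values below. The 150 bases before each start are given for H2-D1 (chr17:35262944-35263093, plus strand) and for the first of 2 starts of H2-K1 (chr17:34000348-34000497, minus strand). The capitals mark their longest shared run, 37 bases that lie at −150 to −114 from the start of H2-D1 and at −90 to −54 from that of H2-K1.
H2-D1: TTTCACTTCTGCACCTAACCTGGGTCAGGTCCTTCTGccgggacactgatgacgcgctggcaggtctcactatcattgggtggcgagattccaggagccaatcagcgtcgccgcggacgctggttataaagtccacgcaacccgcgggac
H2-K1 start 1: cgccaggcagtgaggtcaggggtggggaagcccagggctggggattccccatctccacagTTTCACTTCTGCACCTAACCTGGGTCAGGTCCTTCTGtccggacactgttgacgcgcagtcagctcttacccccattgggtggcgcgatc
The promoter of Psmb8 (chr17:34198045-34198194, plus strand) is shown as the member with a match to the gamma-activated site, a motif of promoters that respond to interferon-gamma, which is in capitals at −97 to −89.
Psmb8: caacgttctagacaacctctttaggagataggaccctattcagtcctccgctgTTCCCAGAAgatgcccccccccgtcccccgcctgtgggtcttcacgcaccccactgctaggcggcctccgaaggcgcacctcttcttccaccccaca
The motif TTCNNNGAA was found on either strand of the 300-base window of 2726 of all 32851 RefSeq promoters (8.30%), and of the members in Psmb8 alone. The motif ATTGG or its reverse CCAAT was found in 5 of the 8 (H2-K1, H2-D1, Tap1, Tapbp and Psmb9), against 37.4% of all promoters. The matches of Tap1 and Psmb9 are the same bases, the box marked in their interval, so that 1 site is counted for both genes. The core of the interferon-stimulated response element, 2 copies of GAAA with any 2 bases between them, was found in 1 of the 8, that of Psme1, downstream of its start, against 3.44% of all. The cyclic AMP response element TGACGTCA was found in none of the 8, against 1.79% of all. These motifs do not overlap each other as written, and a match describes letters only.

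Transcripts of all 10 genes were present in all 120 samples. Counts brought to a common library total (CPM, with the total scaled by the trimmed mean of M values, TMM) were divided by exon length to compare genes with each other. H2-D1 stood highest with a median of 1292 CPM per kilobase over all samples, followed by Tapbp at 83.6, H2-K1 at 51.1 and Tap2 at 23.7 CPM per kilobase. Nlrc5 and Psmb8 (both 16.2), Psme1 (15.9), Psmb10 (14.4) and Tap1 (13.6 CPM per kilobase) lay close together, and Psmb9 was lowest at 5.42. The ranges of these last genes over samples overlapped. The levels of H2-K1 and H2-D1 carry an added uncertainty, because class I heavy chains are near copies of each other and the reference genome carries another haplotype (H2b) than these mice, so that reads can be split between them.

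Several of the genes differed in level between the sequencing batches, which holds for a fixed age and strain. In NOD samples at 6 weeks, the batch 2 median was 0.507 times that of batch 1 for Tap2, 0.554 times for Psmb8, 0.588 times for Tapbp and 0.609 times for H2-D1. It was 1.27 times that of batch 1 for H2-K1, and between 0.732 and 1.05 times for the other 5 genes. Only for Tapbp did the samples of both batches not overlap, and the share of all genes without overlap was not counted. All values below are therefore given by batch, and the fits that span both have batch as a term.

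No difference between NOD and NOR was detected for the 10 genes. This comparison asked whether the strain at risk differs from the control strain, with all samples of a mouse in batch 1 summed to 1 library (9 NOD and 5 NOR mice). None of the 10 genes passed the test (edgeR's quasi-likelihood test with Benjamini-Hochberg adjustment), against 8.98% of 23387 genes tested. DESeq2 called none of the 10 either, against 12.7% of genes, and 1 of the 10 (H2-K1) had an unadjusted p under 0.05.
H2-K1, a classical heavy chain, had CPM of 110.6 to 123.9 (median 120.1) in the 5 NOR mice, 114.7 to 146.5 (median 128.0) in the 4 nonprogressors and 117.5 to 148.9 (median 126.4) in the 5 progressors. The groups overlapped, and the log2 difference of NOD from NOR was 0.15 (SE 0.07, 95% interval 0.00 to 0.29, edgeR adjusted p = 0.196). H2-D1, the other classical heavy chain, differed by 0.02 on the log2 scale, with medians of 3488 CPM in NOR, 3536 in nonprogressors and 3803 in progressors. Among the genes of transport and loading, the log2 differences were 0.08 for Tap1, −0.06 for Tap2 and −0.03 for Tapbp. Among the proteasome genes they ran from −0.05 for the activator subunit Psme1 to 0.04 for Psmb8, and for Nlrc5 the log2 difference was −0.02 (95% interval −0.22 to 0.18). With 6-week samples only, that of Nlrc5 was −0.50 and did not pass (edgeR adjusted p = 0.231). The 95% intervals of all 10 log2 differences lay between −0.22 and 0.29. The median log2 difference was −0.00 over the 10 genes and −0.00 over all genes tested.

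**Figure D1:**
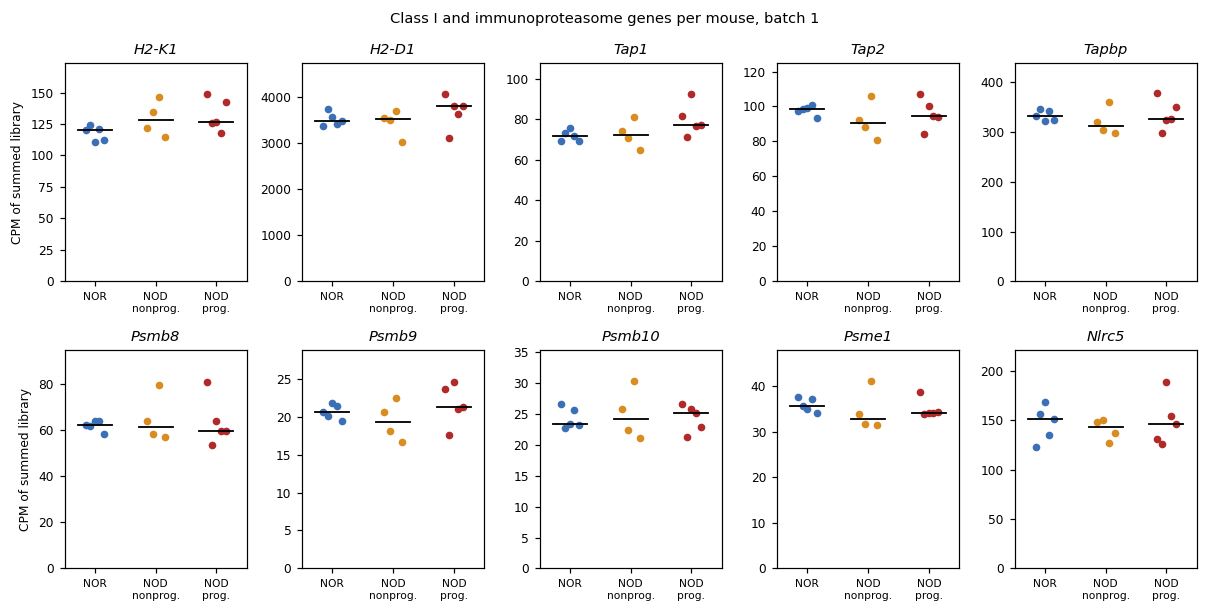
CPM (y axis, from 0) of the 10 genes in the summed batch 1 library of each mouse, for 5 NOR, 4 NOD nonprogressor and 5 NOD progressor mice, with a point for each mouse and a bar at the median. In every panel the NOD points overlap those of the NOR mice, as for Nlrc5, with 123 to 169 CPM in NOR and 126 to 189 CPM in progressors.

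Nonprogressor and NOR mice, which were sampled at the same ages, gave the same picture over 4 and 5 mice. None of the 10 genes passed the edgeR test, against 6.26% of 22975 genes, none had an unadjusted p under 0.05, and DESeq2 called none, against 11.1%. The log2 differences ran from −0.10 for Tap2 to 0.13 for H2-K1. NOD and NOR did differ in partners of the 10 genes. B2m, which encodes beta-2 microglobulin, had 754 to 887 CPM in the NOR mice and 582 to 742 CPM in the NOD mice, without overlap. The share of all genes without overlap was not counted in this comparison. B2m was lower in NOD by a log2 difference of −0.30 (SE 0.06, edgeR adjusted p = 0.0086). In the list of loading complex and trimming genes, it and Canx (0.12), a chaperone of new heavy chains, were the 2 of 6 that passed. Of 12 other class I heavy chains, H2-Q6 was higher by 0.26 and H2-Q10 lower by 0.26 (log2 difference −0.26).

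The proteasome partner that differed most was Psmb6, the standard catalytic subunit that Psmb9 replaces. Psmb6 had 38.5 to 40.6 CPM (median 40.3) in the NOR mice and 92.4 to 118 CPM (median 112) in the NOD mice, and no NOD mouse came near the NOR range. The log2 difference was 1.45 (SE 0.06, edgeR adjusted p = 6.6e-11) for all NOD mice and 1.48 (adjusted p = 8.3e-08) for nonprogressors alone. The Psmb6 pseudogenes annotated in the reference genome had 0 to 4 counts in any sample, and what underlies the Psmb6 difference was not tested. The other standard subunits, Psmb5 and Psmb7, did not pass. Of 12 other genes of the 20S core and its assembly, 3 passed and were higher in NOD, against 8.98% of all genes that passed in either direction. They were Psma4 (by 0.20), Psmb4 (by 0.12) and Psma1 (by 0.13 on the log2 scale). None of 3 other activator genes passed. Of 15 genes of the interferon-gamma pathway and class I transcription, 14 could be tested and only Ciita, the transactivator of class II genes, passed, with a log2 difference of −0.33. Ifng itself had 0 to 12 counts per sample and was above 0 in 68 of the 120 samples.

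Ratios within a library do not depend on its scaling, and each inducible subunit was set against the standard subunit it replaces, per exon length. The log2 ratio of Psmb9 to Psmb6 was −3.38 ± 0.14 (SD, n = 9) in NOD and −1.91 ± 0.07 (SD, n = 5) in NOR mice. The difference of −1.47 had p = 0.0005 (two-sided exact permutation test, the smallest p that 2002 regroupings allow with these numbers) and 0.003 after adjustment over 6 tests. The log2 ratio of Psmb8 to Psmb5 differed by −0.07 (exact permutation p = 0.438) and that of Psmb10 to Psmb7 by −0.08 (exact permutation p = 0.245). Of the ratio that set the strains apart, the numerator, Psmb9, differed by −0.01 on the log2 scale and the denominator, Psmb6, by 1.45.

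At 6 weeks of age, no difference between future progressors and nonprogressors was detected for the 10 genes. The comparison held 10 progressors and 11 nonprogressors over both batches. None of the 10 genes passed the edgeR test, as none of all 20090 genes did (0%), and DESeq2 called none of the 20090 either. At an unadjusted p under 0.05 stood 999 genes, 1 of them a member. That member was H2-K1, with a log2 difference of 0.22 (95% interval 0.01 to 0.44, edgeR adjusted p = 0.909). In batch 2 its CPM was 168 to 234 in the 5 progressors and 140 to 223 in the 7 nonprogressors, and in batch 1 it was 128 to 197 in 5 progressors and 105 to 179 in 4 nonprogressors, so the groups overlapped in both. The other 9 log2 differences ran from −0.09 (Psmb10) to 0.12 (Nlrc5), and their 95% intervals all held 0.

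Between 6 weeks of age and onset, progressors gained transcripts of Nlrc5, H2-D1 and Tap2 and lost those of Psme1. These 4 of the 10 genes passed the edgeR test over all 58 progressor samples with batch as a term, and 3 of them rose. Among all 21279 genes tested 39.6% passed (19.6% higher and 19.9% lower), so the share of members that passed was close to that of genes at large.
Nlrc5 had 103, 83.6, 85.6, 128 and 115 CPM at 6 weeks in batch 1 (mice 1 to 5) and 133, 116, 337, 141 and 162 CPM at onset in the same mice. In batch 2 (mice 6 to 10) it had 94.6, 173, 108, 183 and 139 CPM at 6 weeks and 232, 198, 239, 212 and 187 CPM at onset. All 10 mice were higher at onset, and in batch 2 the values at onset did not overlap those at 6 weeks. The shares of all genes that moved the same way in every mouse, or without overlap, were not counted, here or in the comparisons below. The log2 difference was 0.66 (SE 0.17, 95% interval 0.32 to 1.00, edgeR adjusted p = 0.0015). It passed within each batch, with 0.79 in batch 1 (1 of 10 genes, against 18.1% of all) and 0.59 in batch 2 (3 of 10, against 34.3%), and was 0.53 (edgeR adjusted p = 0.00847) without the onset sample of mouse 3, the highest in its batch. With the mouse as a block, the same 4 genes passed, against 37.0% of all genes.

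H2-D1 had 3467, 2123, 3460, 3656 and 3091 CPM at 6 weeks in batch 1 and 3751, 2716, 4631, 3260 and 3926 CPM at onset. In batch 2 it had 2089, 2965, 2123, 2744 and 1957 CPM at 6 weeks and 3768, 2860, 3792, 3688 and 3397 CPM at onset. Of 10 mice, 8 were higher at onset. The log2 difference was 0.37 (SE 0.11, 95% interval 0.15 to 0.60, edgeR adjusted p = 0.00679). It was 0.53 and passed within batch 2, and it was 0.22 and did not pass within batch 1 (edgeR adjusted p = 0.347). H2-K1, its neighbour in kind, had a log2 difference of −0.04 (95% interval −0.29 to 0.21), and the batches differed in sign. It was 0.27 within batch 2, where its CPM at onset was 193 to 284 against 168 to 234 at 6 weeks, and −0.36 within batch 1, with 98.2 to 155 against 128 to 197 CPM. Neither passed (edgeR adjusted p of 0.103 and 0.180), and the difference between the batches was not tested.

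Tap2, a chain of the peptide transporter, differed by 0.28 on the log2 scale (SE 0.11, 95% interval 0.06 to 0.50, edgeR adjusted p = 0.0385). In batch 2 it had 38.4, 46.4, 52.7, 70.0 and 54.1 CPM at 6 weeks and 91.0, 56.2, 65.5, 84.7 and 72.8 CPM at onset, and all 5 mice were higher. In batch 1 it had 62.7 to 108 CPM at 6 weeks and 76.4 to 144 CPM at onset, and 2 of 5 mice were higher (log2 difference 0.11, edgeR adjusted p = 0.657). The call was lost without the onset sample of mouse 3 (0.23, edgeR adjusted p = 0.105) or of mouse 9 (0.24, edgeR adjusted p = 0.0809). Tap1, the other chain, had a log2 difference of 0.22 (95% interval −0.08 to 0.53, edgeR adjusted p = 0.245), and Tapbp one of 0.04.

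Psme1 encodes the alpha subunit of the PA28 activator, a cap of the proteasome core. It had 44.6, 35.0, 37.0, 44.0 and 42.7 CPM at 6 weeks in batch 1 and 33.9, 32.3, 39.1, 37.0 and 28.5 CPM at onset. In batch 2 it had 33.2, 33.1, 34.8, 44.1 and 41.8 CPM at 6 weeks and 31.8, 30.3, 30.9, 12.9 and 32.5 CPM at onset. Of 10 mice, 9 were lower at onset, mouse 9 by the most. The log2 difference was −0.37 (SE 0.12, 95% interval −0.61 to −0.13, edgeR adjusted p = 0.0123) and −0.28 (edgeR adjusted p = 0.0314) without the onset sample of mouse 9. Within single batches the value was −0.25 in batch 1 (edgeR adjusted p = 0.185) and −0.46 in batch 2 (edgeR adjusted p = 0.059), and neither passed. The inducible catalytic subunits had log2 differences of −0.07 (Psmb8), 0.21 (Psmb9) and −0.12 (Psmb10), none of which passed, and their log2 ratios to the standard subunits differed by −0.10, 0.14 and −0.05 (two-sided exact sign-flip permutation test, adjusted p of 0.567, 0.567 and 0.691, 10 mice).

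**Figure D2:**
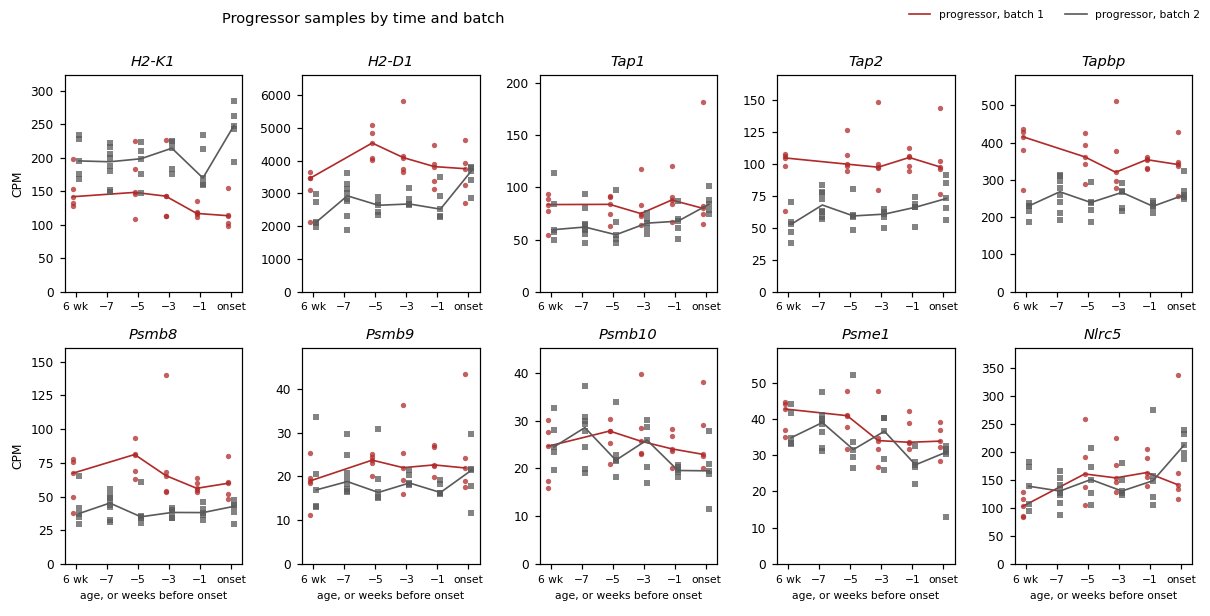
CPM (y axis, from 0) of the 10 genes in progressor samples by time (x axis: 6 weeks of age, then weeks before onset and onset), with a point for each sample and lines through the medians of batch 1 (red) and batch 2 (grey). Nlrc5 ends higher than it began in both batches, while Tap2, Tapbp and Psmb8 lie lower in batch 2 than in batch 1 at every time both were sampled.

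Markers of cell types in the INs also moved between 6 weeks and onset. In bulk samples, a change in the share of a cell type and a change in transcripts per cell cannot be told apart. All 3 fibroblast markers (Col1a1, Dcn and Pdgfra) fell, and their summed CPM went from a range of 16887 to 32642 at 6 weeks to 4207 to 15121 at onset in batch 1 and from 17594 to 25257 to 2938 to 8506 in batch 2, without overlap. The leukocyte marker Ptprc was higher at onset (log2 difference 0.55), with 242 to 356 CPM against 204 to 259 CPM in batch 1 and 360 to 606 CPM against 260 to 334 CPM in batch 2. Of 3 endothelial markers 2 fell (Cdh5 and Kdr), and of 6 T cell markers 1 of 5 tested passed (Cd3g, higher). The summed T cell markers had 8.02 to 21.8 CPM at 6 weeks and 4.12 to 9.21 CPM at onset in batch 1, and 2.97 to 8.95 CPM and 5.02 to 19.4 CPM in batch 2. The summed CPM of 5 macrophage markers went from 3761 to 5492 at 6 weeks to 4675 to 5557 at onset in batch 1 and from 5661 to 7747 to 6670 to 9059 in batch 2. None of the markers was at 0 in these groups, and their part in the changes of the 10 genes was not tested. The share of counts on 7SL RNA genes, small cytoplasmic RNAs of the signal recognition particle, went from 0.790% to 4.12% at 6 weeks to 6.00% to 17.4% at onset in batch 1, without overlap, and its medians in batch 2 were 4.12% and 5.73%, with overlap. Without ribosomal RNA and 7SL genes the same 4 members passed.

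Other genes of the pathway moved in both directions at onset, where 19.6% of all genes were higher and 19.9% lower. Of 12 other class I heavy chains 4 rose and 2 fell. Among them, H2-M3 (log2 difference 0.53), H2-Q7 (0.65) and H2-Q6 (0.71) had the smallest p, and Mr1 (0.44), H2-T24 (−0.84) and H2-T22 (−0.35), named after their values were seen, were the others. Of 6 loading genes, Pdia3 (−0.24) and Calr (−0.25), which fold and hold heavy chains in the endoplasmic reticulum, fell. No standard catalytic subunit and no other activator gene of 3 each passed, and of 12 other core and assembly genes Psma4 fell (−0.38). Of the 14 interferon and transcription factor genes tested, Irf2 (0.29), Irf8 (0.58) and Ciita (0.94) rose, and Irf9 (−0.49) and Jak1 (−0.22), a factor and a kinase of interferon signalling, fell. B2m had a log2 difference of −0.15 (edgeR adjusted p = 0.447).

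**Figure D3:**
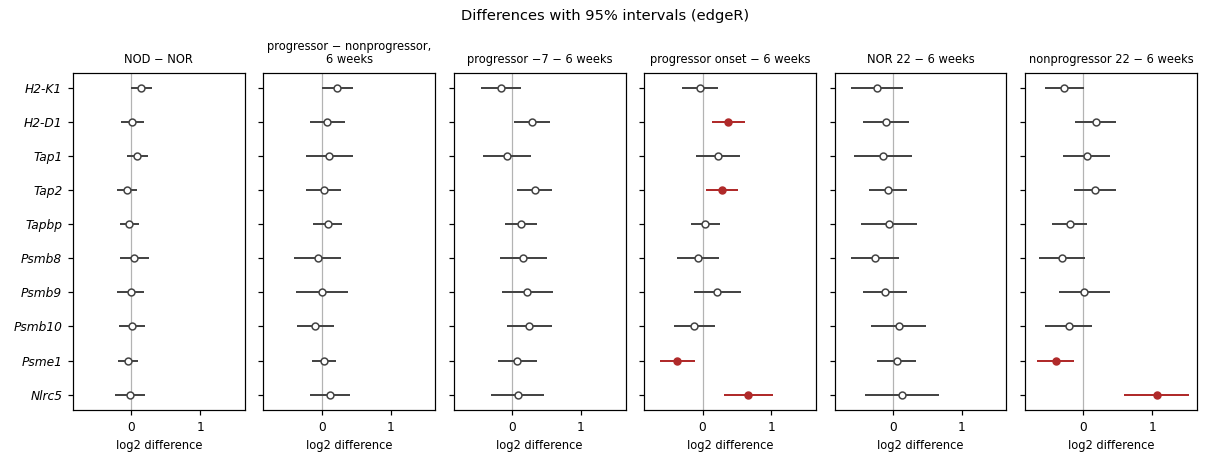
Log2 difference (x axis, edgeR) of each of the 10 genes (y axis) with its 95% interval in 6 comparisons, filled red where the edgeR adjusted p is under 0.05. Calls are seen only for onset against 6 weeks in progressors (H2-D1, Tap2, Psme1 and Nlrc5) and for 22 against 6 weeks in nonprogressors (Psme1 and Nlrc5), and none for NOD against NOR, which has the narrowest intervals.

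The times between 6 weeks of age and onset asked when over this span the genes moved. Progressors also grew older over it, so age and stage of disease cannot be told apart in any progressor comparison over time. By the paper's methods, INs were first taken out at 6 weeks of age and then exchanged weekly in rotation. Time in place and repeated surgery can therefore also differ between 6 weeks and later times. They cannot be told apart from age or stage, here or in the comparisons of ages in NOR mice and nonprogressors below. At 7 weeks before onset, none of the 10 passed against 6 weeks of age, compared with 12.5% of all genes. DESeq2 called none (14.9% of all genes), and 2 had an unadjusted p under 0.05. These were H2-D1 (log2 difference 0.29, edgeR adjusted p = 0.107) and Tap2 (0.33, edgeR adjusted p = 0.064). Both values rest on the batch term, as all 8 samples were sequenced in batch 2. Within batch 2, Tap2 passed (log2 difference 0.41, edgeR adjusted p = 0.033, 1 of 10 against 19.1% of all genes), with 56.7 to 83.2 CPM at 7 weeks before onset against 38.4 to 70.0 CPM at 6 weeks of age.
Later samples (5, 3 and 1 weeks before onset and onset together) against 7 weeks before onset gave no call among the 10 genes, against 3.89% of all genes, and DESeq2 gave none, against 5.62%. At an unadjusted p under 0.05 stood Psme1 (log2 difference −0.31, edgeR adjusted p = 0.0948), Psmb10 (−0.29, edgeR adjusted p = 0.187) and Nlrc5 (0.39, edgeR adjusted p = 0.159). No single step between neighbouring times moved any of the 10, at an unadjusted p under 0.05 or after adjustment, against 0% to 0.00470% of all genes. The largest step was that of Nlrc5 from 7 to 5 weeks before onset, with a log2 change of 0.33 (95% interval −0.05 to 0.71, edgeR adjusted p = 0.49). In the 4 mice with batch 2 samples at both times, Nlrc5, H2-D1, Tap1 and Tapbp were higher at onset than at 7 weeks before it in 4 of 4. The share of all genes that were higher in all 4 was not counted. Over all progressor times in 1 test, Nlrc5 (edgeR adjusted p = 0.0166) and Psme1 (edgeR adjusted p = 0.0198) passed, 2 of 10 against 35.6% of all genes. Neither passed within batch 2 alone (edgeR adjusted p of 0.0689 and 0.0941), where none of the 10 did, against 27.9% of all genes. With the mouse as a block Nlrc5 passed and Psme1 did not. Nlrc5 held in 8 of 9 alternatives and Psme1 in 6 of 9.

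In NOR mice, the inducible subunit Psmb8 changed with age. It was the 1 of 10 genes that passed over the 5 ages (edgeR adjusted p = 0.0366), against 8.24% of all genes. Its CPM ran from 54.8 to 68.4 at 6 weeks, 74.4 to 89.3 at 10 weeks, 57.6 to 72.7 at 14 weeks, 32.3 to 87.1 at 18 weeks and 44.0 to 53.7 at 22 weeks. Thus the 10-week samples lay above all those at 6, 14 and 22 weeks, and the 22-week samples below all those at 6 weeks. A block for the mouse ended the call (edgeR adjusted p = 0.0800, 0 of 10 against 5.94% of all genes), as did leaving out any of mice 1, 2, 3 and 5. H2-D1 (edgeR adjusted p = 0.156) and Tap2 (edgeR adjusted p = 0.148) peaked at the same age, with medians of 4385 and 127 CPM at 10 weeks against 3285 and 93.5 CPM at 6 weeks. DESeq2 called both (adjusted p of 0.0177 and 0.0289) along with Psmb8, 3 of 10 against 17.9% of all genes. Without the 18-week sample of mouse 5, edgeR called Psmb8 and Tap2. Between 22 and 6 weeks none of the 10 passed (1.08% of all genes did), none had an unadjusted p under 0.05, and DESeq2 called none (2.64% of all genes). There the log2 difference was −0.26 for Psmb8, 0.13 for Nlrc5 and 0.05 for Psme1.

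In nonprogressors, Nlrc5 was higher and Psme1 lower at 22 than at 6 weeks of age, and these were the 2 of 10 genes that passed, against 24.9% of all genes (11.2% higher and 13.7% lower). Nlrc5 had 106, 107, 106 and 85.2 CPM at 6 weeks in batch 1 (mice 1 to 4), 179, 127, 184 and 180 CPM at 14 weeks and 233, 271, 194 and 314 CPM at 22 weeks. These 3 ages did not overlap, the 10- and 18-week samples (98.9 to 199 CPM) overlapped them, and all 4 mice were higher at 22 than at 6 weeks. The share of all genes that did the same was not counted. The log2 difference of 22 from 6 weeks was 1.06 (SE 0.23, 95% interval 0.60 to 1.53, edgeR adjusted p = 0.00106) and 1.33 within batch 1, where Nlrc5 alone passed against 21.5% of all genes. In batch 2, where samples were taken at 6 and 14 weeks, 2 of 6 mice were higher at 14 weeks.
Psme1 had 42.4, 37.0, 45.5 and 35.9 CPM at 6 weeks and 33.3, 25.7, 32.0 and 28.8 CPM at 22 weeks, lower in all 4 mice and without overlap. Again, the share of all genes that did the same was not counted. The log2 difference of Psme1 was −0.40 (SE 0.12, 95% interval −0.66 to −0.15, edgeR adjusted p = 0.0179). Within batch 1 it was −0.42 and did not pass (edgeR adjusted p = 0.0529), nor did it without mouse 1, 2 or 4 (edgeR adjusted p of 0.0539 to 0.0771).

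The remaining genes moved less in nonprogressors. H2-K1 passed over all 5 ages (edgeR adjusted p = 0.0498) with Nlrc5 (0.00335) and Psme1 (0.0221), 3 of 10 against 34.7% of all genes. Its CPM in batch 1 ran from 105 to 179 at 6 weeks, 130 to 174 at 10 weeks and 89.3 to 124 at 22 weeks, and its call was lost within batch 1 (edgeR adjusted p = 0.166, where 1 of 10 passed against 13.6% of all genes) and without the 18-week sample of mouse 3 (edgeR adjusted p = 0.0521). It held in 3 of 11 alternatives in all, and was lost in 3 of the 4 that left out a mouse (edgeR adjusted p of 0.0534 to 0.136). Under a block for the mouse, 5 of 10 passed over the ages, against 23.3% of all genes, Psmb8 (edgeR adjusted p = 0.0079) and Tapbp (edgeR adjusted p = 0.0426) being added. Psmb8 also passed under the block for 22 against 6 weeks (log2 difference −0.30, edgeR adjusted p = 0.0272, 3 of 10 against 19.6% of all genes), where its value without the block was −0.31 (edgeR adjusted p = 0.151). It was lower at 22 weeks in 4 of 4 mice, as were H2-K1 and Tapbp, while Tap1 was higher in 4 of 4. How many of all genes moved the same way in all 4 mice was not counted.
Alongside, the share of counts on 7SL RNA genes was 16.6% to 38.3% at 22 weeks and 2.47% to 5.39% at 6 weeks in batch 1. The summed CPM of the 3 fibroblast markers was 6941 to 20292 at 22 weeks and 12664 to 19578 at 6 weeks, and Dcn and Pdgfra fell. Flt3 and Xcr1 of 4 dendritic cell markers, Lyz2 of 5 macrophage markers and Cd4 of 6 T cell markers also fell. The other markers of these lists are not reported for this comparison, in which 13.7% of all genes were lower. When ribosomal RNA and 7SL genes were left out, the log2 differences were 1.09 for Nlrc5 and −0.38 for Psme1 and both passed. The part of the cell markers in these changes was not tested.

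**Figure D4:**
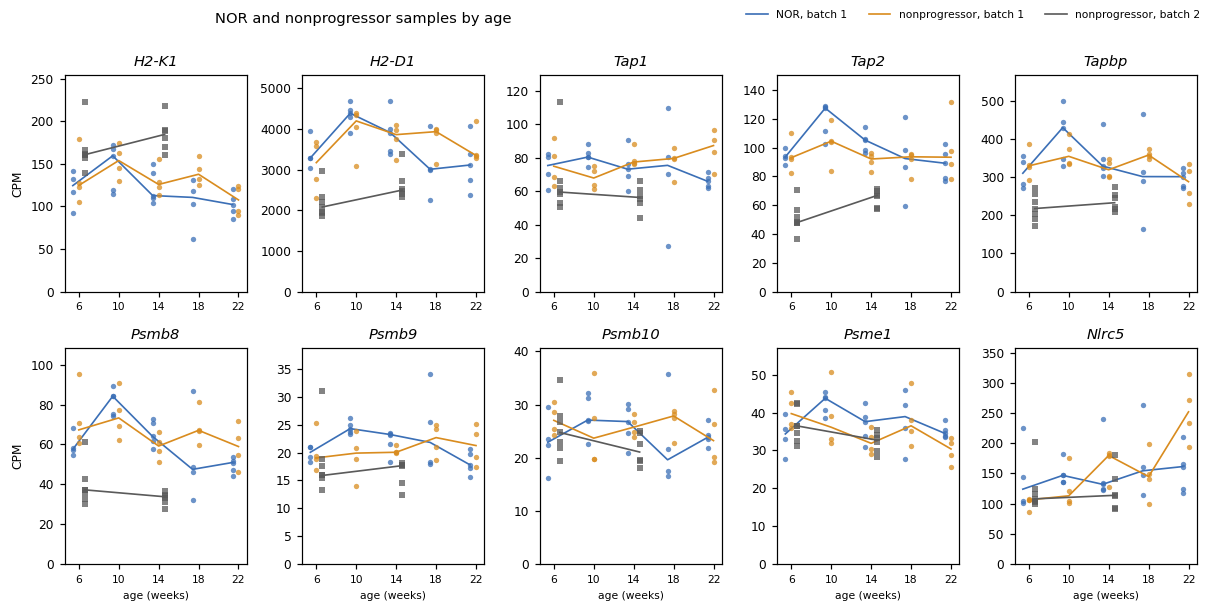
CPM (y axis, from 0) of the 10 genes by age in weeks (x axis) in NOR mice (blue) and nonprogressors of batch 1 (orange) and batch 2 (grey, sampled at 6 and 14 weeks), with a point for each sample and lines through the medians. The nonprogressor line of Nlrc5 rises to a median of 252 CPM at 22 weeks against 161 CPM in NOR, and Psmb8 in NOR peaks at 10 weeks.

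Other genes of the pathway moved in both directions in nonprogressors at 22 weeks, where 11.2% of all genes were higher and 13.7% lower. Of 12 other core and assembly genes of the proteasome 5 fell and none rose. Psma4 (log2 difference −0.65), Psma3 (−0.31) and Psmb3 (−0.37) had the smallest p, followed by Psmb2 and Psma5. The standard subunit Psmb7 (−0.24) and the activator Psme4 (−0.19) fell. Pdia3 (−0.44) and Calr (−0.38) fell, as they did at onset in progressors. Of the other heavy chains, H2-Q10 (1.25), H2-Q4 (0.57) and H2-Q2 (0.91) rose and H2-T24 (−1.33) fell. Irf9 (−0.67), a factor of interferon signalling, fell, and no gene of the interferon list rose.

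Whether age acted differently in the strains was tested as the interaction of strain and age over 23 NOR and 20 nonprogressor samples of batch 1. None of the 10 genes passed in edgeR, against 1.43% of all genes, and 1, Nlrc5, had an unadjusted p under 0.05 (edgeR adjusted p = 0.148). DESeq2 called Nlrc5 (adjusted p = 0.0416), 1 of 10 against 5.25% of all genes. At 22 weeks, Nlrc5 had 117 to 210 CPM in the 5 NOR mice and 194 to 314 CPM in the 4 nonprogressors. At 6 weeks it had 100 to 226 CPM in 4 NOR mice and 85.2 to 107 CPM in 4 nonprogressors.

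Over the 120 samples, the genes followed the mean of the others to different degrees, Nlrc5 and Psme1 least. Log2 CPM was centred within strain and batch, and each gene was correlated with the mean of the other 9. The correlations share libraries and their depth and are given as a description. Pearson's r was 0.853 for Psmb8, 0.797 for Tapbp, 0.770 for Psmb9, 0.753 for Tap1, 0.712 for Tap2, 0.662 for H2-K1, 0.618 for Psmb10 and 0.602 for H2-D1, but 0.396 for Psme1 and 0.222 for Nlrc5. Among the members Nlrc5 was closest to Tap1 (0.589) and H2-D1 (0.564), and this varied by batch. In NOD samples its r was 0.762 with H2-K1, 0.706 with H2-D1 and 0.753 with Tap1 in batch 2 (46 samples), and −0.10, 0.49 and 0.53 in batch 1 (51 samples). With other heavy chains Nlrc5 had r of 0.846 for H2-Q6, 0.838 for H2-Q4 and 0.773 for H2-M3, and inversely with the fibroblast markers Dcn (−0.638) and Pdgfra (−0.622). Psme1 varied with its partner in the PA28 ring, Psme2 (0.799), and with the inducible subunits Psmb10 (0.751), Psmb8 (0.634) and Psmb9 (0.545), while its r with H2-D1 was −0.05.
Of 15900 other genes, the 10 most like the mean of the members were Slamf8 (0.771), Tapbpl (0.749), Irf8 (0.747), Trafd1 (0.740), H2-DMa (0.719), H2-DMb1, St6galnac4, Gbp8, Rasa4 and Ptpn6 (0.693). Tapbpl encodes a relative of tapasin that edits class I peptides, and H2-DMa and H2-DMb1 encode the chains of the class II peptide exchanger.

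**Figure D5:**
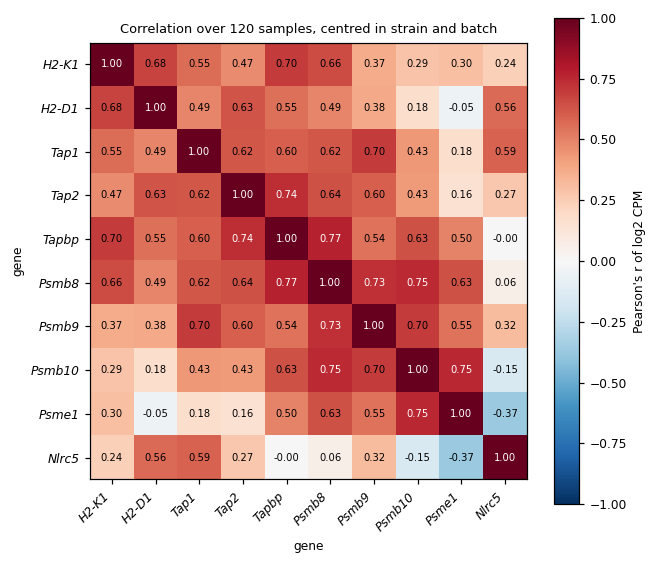
Pearson's r between each pair of the 10 genes (both axes) over 120 samples, of log2 CPM centred within strain and batch, on a colour scale from −1 to 1. Psmb8 is correlated with Psmb9, Psmb10 and Tapbp at 0.73 to 0.77, and Nlrc5 with Psme1 at −0.37.

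Single libraries led many of the genes at once. Among libraries in groups of 4 or more of the same strain, status, time and batch, 2 were the highest of their group in all 10 genes, 4 in 9 and 1 in 8, and 48 were highest in none. The share of all genes in which each library was highest was not counted. These counts, and those of the interferon list below, therefore have no background to be read against. The pair that led in all 10 were the 14-week batch 1 sample of nonprogressor mouse 3 and the onset sample of progressor mouse 3. In the latter, Tap1 had 182 CPM against 64.5 to 82.3 CPM in the other 4 mice, Psmb9 43.3 against 17.5 to 24.2 CPM and Nlrc5 337 against 116 to 162 CPM. In the same library, Irf1, a factor induced by interferon that was chosen after its values were seen, had 71.9 CPM against 24.3 to 38.2 CPM. The summed T cell markers had 4.12 CPM against 5.73 to 9.21 CPM there, and the summed macrophage markers 4675 against 4932 to 5557 CPM.
The 5-weeks-before-onset sample of progressor mouse 8, the highest in 8 genes, had 58.9 CPM of Irf1 against 26.3 to 30.4 CPM, 64.7 CPM of T cell markers against 8.08 to 18.4 CPM and 30.3 CPM of NK cell markers against 3.09 to 15.4 CPM. In the 3-weeks-before-onset sample of progressor mouse 1, Irf1 had 56.7 CPM against 19.3 to 45.4 CPM and the macrophage markers 7793 against 4389 to 5942 CPM. In the 6-week sample of nonprogressor mouse 5, Irf1 had 51.5 CPM against 27.5 to 41.1 CPM. Thus in these 4 libraries Irf1 was the highest of its group, as it was in 2 of the other 3 that led 8 or more genes, and in the last of them it lay within the range of the group. The T cell markers were the lowest of the group in 1 of the 4 and the highest in 3. The interferon list, which holds Irf1, was highest in 10 of 14 genes in progressor mouse 3 at onset. It was highest in 9 of 15 genes in nonprogressor mouse 5 and in 7 of 15 in each of progressor mice 8 and 1. In the other 3 libraries it was highest in 9, 9 and 3 of 15 genes. The 6-week batch 1 sample of nonprogressor mouse 1, highest in 0 members, also led 9 of 15. The part of any cell type in these libraries was not tested.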

How the data were processed

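Total RNA of the scaffolds was depleted of ribosomal RNA and sequenced by the authors on a different NovaSeq model for each batch. Per the labels' processing notes, the tools were cutadapt, FastQC, STAR, RSEM and MultiQC on GRCm38, with versions not given in the sources used here. The authors deposited 1 table of expected counts per gene and batch, not normalized and already whole numbers, so that no rounding was needed. Whether counting used strand is not given in the sources used here.

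The 10 genes were matched by symbol, and 0 per-sample columns were left unmapped. Tests ran over all genes that passed filterByExpr, with TMM scaling, edgeR 4.0.16 quasi-likelihood fits, Benjamini-Hochberg adjustment and a threshold of 0.05 (R 4.3.3). Strain comparisons summed the samples of each mouse in batch 1, and batch was a term where groups spanned both. Ratios of subunits were tested by exact permutation, with Python 3.11.15. Calls are given for DESeq2 1.42.0 as an alternative. Mice are the replicates, biopsied repeatedly. The main tests over time or age, however, took each sample as a separate unit, without a term for the mouse. Fits with the mouse as a block are given as an alternative. The mouse numbers of the labels pair samples, since the same number is the same animal, although the residuals of 2000 genes correlated little within a mouse (mean r of 0.0139 in NOR, 0.0142 in nonprogressors and −0.0106 in progressors). On simulated data with 200 of 23138 genes changed by 1 on the log2 scale, the strain comparison recovered 78% of them, and that of onset with 6 weeks recovered 68.5% of 200 among 20981 genes. The lowest value of any member in any library was 11.2 CPM, and the library of the lowest total (4722396 counts) has the largest counting error.

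The members and the gene lists were chosen with earlier results of these data known. All members are named, as are up to 3 genes with the smallest p of each list that passed and the 10 genes most like the members. Some genes of the lists are not reported here. Settings that leave out ribosomal RNA and 7SL genes, both 18-week libraries that stood apart, or the single libraries of progressor mice 3 and 9 and nonprogressor mouse 5, and the steps between neighbouring times, were chosen after seeing the data. Coordinates are those of GENCODE M21, and promoters are from RefSeq on GRCm38.p6.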

Additional observations from a re-analysis of the deposited data

Results flagged for a closer look

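Of 230 groups of 4 to 8 samples (10 genes in 23 combinations of status, time and batch), 28 (12.2%) had a sample far from the others by Dixon's criterion, where chance gives about 1 in 20, and the 10 genes share libraries. No 2 groups moved in fully opposite directions in any of 50 pairs compared.

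The 6-week batch 2 sample of nonprogressor mouse 5 was far above the other 6 in 6 genes. H2-K1 had 223 CPM there (others 140 to 166), H2-D1 2976 (1864 to 2319), Tap1 113 (50.7 to 66.3), Psmb8 61.5 (30.0 to 42.9), Psmb9 31.1 (13.3 to 18.9) and Nlrc5 201.5 CPM (99.5 to 124). The macrophage markers summed to 7654 CPM in this library and to 5598 to 6589 CPM in the others. The onset sample of progressor mouse 3 was far above the other 4 of batch 1 in H2-K1 with 155 CPM (98.2 to 115), Tap1 with 182 (64.5 to 82.3), Psmb9 with 43.3 (17.5 to 24.2) and Nlrc5 with 337 CPM (116 to 162). Progressor mouse 1 at 3 weeks before onset had 227 CPM of H2-K1 (112 to 143), 5803 of H2-D1 (3649 to 4150) and 140.3 of Psmb8 (53.4 to 68.5), and at 1 week before onset 134 CPM of H2-K1 (112 to 118). Progressor mouse 8 at 5 weeks before onset had 60.7 CPM of Psmb8 (30.1 to 35.9), 30.9 of Psmb9 (15.1 to 19.4) and 52.2 of Psme1 (26.6 to 33.8).

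The lowest values that stood apart were 12.9 CPM of Psme1 in progressor mouse 9 at onset (30.3 to 32.5), 62.7 of Tap2 in progressor mouse 2 at 6 weeks (98.5 to 108), 3126 of H2-D1 in nonprogressor mouse 3 at 18 weeks (3892 to 4004), 127 of Nlrc5 in nonprogressor mouse 2 at 14 weeks (179 to 184) and 85.2 of Nlrc5 in nonprogressor mouse 4 at 6 weeks (106 to 107). The remaining high values were 3382 CPM of H2-D1 in nonprogressor mouse 10 at 14 weeks (2334 to 2717), 4197 of H2-D1 in nonprogressor mouse 1 at 22 weeks (3280 to 3359), 88.5 of Tap1 (76.2 to 77.8) and 21.3 of Psmb9 (19.9 to 20.1) in nonprogressor mouse 3 at 14 weeks, 182 of Nlrc5 in NOR mouse 4 at 10 weeks (135 to 147) and 241 of Nlrc5 in NOR mouse 2 at 14 weeks (123 to 133).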

How the results depend on the processing

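Of 1430 values of single members under another setting, 1321 kept their direction and side of the threshold, 34 lost and 11 gained a call, and 64 changed sign, none of these with a call on either side. Counts of members called that moved by more than 1.5 times were as follows, with smaller moves after them, and the cause was not tested.
Over the progressor times (2 called) the replicate block of mice gave 1, no batch term 1 and batch 2 alone 0. For onset against 6 weeks (4) no batch term gave 2 and batch 1 alone 1, while the block kept all 4, and for 7 weeks before onset (0) batch 2 alone gave 1. Over NOR ages (1) DESeq2 gave 3, the block 0 and leaving out the 18-week sample of mouse 5 gave 2, with 0 to 2 when single mice were left out. Over nonprogressor ages (3) the block gave 5, batch 1 alone 1 and leaving out single mice 1 to 3. For 22 against 6 weeks in nonprogressors (2) batch 1 alone gave 1 and leaving out single mice 1 to 2. For strain by age (0) DESeq2 gave 1. Smaller moves were to 3 over the progressor times with DESeq2, to 3 for onset with no filter, within batch 2 and without the onset sample of mouse 3 or of mouse 9, to 2 over nonprogressor ages with no filter, DESeq2 size factors, without ribosomal RNA and 7SL genes or without the 18-week sample of mouse 3, to 4 there with DESeq2, and to 3 for 22 against 6 weeks in nonprogressors under the block. Fewer samples enter the fits within a batch.

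Sign changes were near 0 or in uncalled genes (log2 differences). NOD against NOR gave −0.13 for H2-D1, 0.012 for Tap2, 0.21 for Tapbp and 0.23 for Psme1 with 6-week samples only, and 0.034 for Tapbp, 0.013 for Psmb9 and 0.033 for Nlrc5 with each sample separately, as did nonprogressor against NOR for H2-D1 (0.022). Progressor against nonprogressor at 6 weeks gave −0.0028 for Tap2, −0.13 for Psmb9 and −0.0049 for Psme1 within batch 1, −0.011 for Tapbp, 0.071 for Psmb8 and 0.010 for Psmb10 within batch 2, 0.00012 for Psmb8 with no batch term, 0.0062 without nonprogressor mouse 5, and −0.0035 for Psmb9 with no filter. Onset against 6 weeks gave 0.022 for H2-K1 and −0.0039 for Tapbp with no batch term, 0.27 for H2-K1 within batch 2, and −0.17 for Tapbp and 0.20 for Psmb10 within batch 1. With no batch term, 7 weeks before onset gave 0.12 for H2-K1, −0.083 for Tap2, −0.19 for Tapbp, −0.22 for Psmb8 and −0.018 for Psme1, and later times against it −0.16 for H2-K1, 0.27 for Tap2, 0.17 for Tapbp, 0.26 for Psmb8 and 0.054 for Psmb9. At 7 weeks before onset Psme1 had −0.028 under the block and Nlrc5 −0.095 within batch 2.
Leaving out single mice moved NOD against NOR from −0.0091 to 0.0507 for H2-D1, −0.0087 to 0.0694 for Psmb8, −0.0368 to 0.0319 for Psmb9, −0.0344 to 0.043 for Psmb10 and −0.0805 to 0.0307 for Nlrc5. It moved nonprogressor against NOR from −0.0729 to 0.0318 for H2-D1, −0.0489 to 0.0686 for Tap1, −0.0587 to 0.1228 for Psmb8 and −0.0784 to 0.1109 for Psmb10. It moved 22 against 6 weeks in NOR from −0.1755 to 0.0315 for Tapbp, −0.0696 to 0.2561 for Psmb10, −0.0463 to 0.1366 for Psme1 and −0.0176 to 0.2808 for Nlrc5, and in nonprogressors from −0.018 to 0.1024 for Tap1 and −0.0708 to 0.0903 for Psmb9.

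Counts over all genes moved by more than 1.5 times for NOD against NOR with 6-week samples only (403 against 2101), nonprogressor against NOR with DESeq2 (2551 against 1439), onset within batch 1 (3549 against 8421), 7 weeks before onset under the block (852) and within batch 2 (4077, against 2670), later times under the block (0), with no batch term (2157) and within batch 2 (1352, against 828), NOR ages with DESeq2 (3509) and without the 18-week sample of mouse 5 (2601, against 1617), NOR 22 against 6 weeks likewise (518 and 380, against 212), nonprogressor ages within batch 1 (2672 against 7334), and strain by age with no filter (188), DESeq2 (1084), the block (129) and without mouse 5 (498, against 296).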

Other observations

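In nonprogressors, 6 samples carry days after implantation in place of an age, 2 each at 31, 38 and 108 days, all of batch 1. Their labels number the mice 1 and 2, and these samples were not paired with the age-labelled samples of those numbers. The 6 samples exceeded the age-labelled samples of batch 1 mainly in Tapbp and Psmb9. Tapbp, which brings empty class I molecules to the transporter, had 441 and 435 CPM at 31 days, 410 and 401 CPM at 38 days and 424 and 417 CPM at 108 days, where the 20 nonprogressor samples of batch 1 labelled by age had 229 to 414 CPM. Psmb9 had 33.3 and 28.2 CPM at 31 days, 27.3 and 19.7 CPM at 38 days and 31.2 and 28.4 CPM at 108 days, against 14.0 to 25.3 CPM. Thus 4 of the 6 samples were above the age-labelled range for Tapbp, 5 of the 6 for Psmb9 and 1 of the 6 for Psmb8 (96.2 against at most 95.3 CPM), and none for the other 7 genes. H2-D1 at 3328 to 3865 CPM (2307 to 4402), Nlrc5 at 92.6 to 137 CPM (85.2 to 314) and Psme1 at 41.5 to 48.5 CPM (25.7 to 50.7) lay within the range of the age-labelled samples. At 108 days, Nlrc5 had 128 and 126 CPM, below all 4 samples labelled 22 weeks, whose lowest had 194 CPM.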
